A study of Mus musculus with 6 samples.

Results

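The genes described here are 9 acidic histone chaperones, taken by name from the deposited table: Set, Anp32a, Anp32b, Anp32e, Nap1l1, Nap1l4, Nasp, Supt16 and Ssrp1. They are 9 of 27480 genes in the table, each has a single row, and all 9 were among the 16592 genes that passed the filter on low counts. Bulk RNA was sequenced from OT1 CD8+ T cells, a mouse model in which a transgenic receptor makes killer T cells respond to an ovalbumin (OVA) peptide. The groups were 3 libraries labelled OE PTMA, where OE is overexpression and PTMA is prothymosin alpha, and 3 libraries labelled OE vector. What both groups share is the genotype label WT and 48 h with the OVA peptide. Sources used here do not give the promoter or species of the construct, or how it entered the cells. The labels also do not say whether replicates were separate animals or cultures, so every p-value here measures the spread between these libraries alone.

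Histone chaperones are proteins that bind histones and pass them to or from DNA without becoming part of the nucleosome. Many carry stretches rich in aspartate and glutamate, whose negative charge shields the positive charge of histones, and prothymosin alpha is a small protein made largely of such residues that binds the linker histone H1. SET and ANP32A are known as inhibitors of histone acetylation, ANP32E removes the histone variant H2A.Z, NAP1L1 and NAP1L4 carry H2A and H2B, NASP holds a reserve of H3 and H4, and SUPT16 (SPT16) with SSRP1 forms FACT, which opens and rebuilds nucleosomes ahead of polymerases. In activated T cells, which divide quickly, new histones have to be placed behind each replication fork.

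The name of the group was checked against the coding sequences, by counting acidic codons, those of aspartate and glutamate. In the longest complete coding transcript of GENCODE M21, acidic codons made up 39.7% of codons in Anp32b, 36.9% in Anp32e, 35.6% in Anp32a and 29.8% in Set. The share was 26.6% in Nap1l1, 23.9% in Nasp, 21.8% in Nap1l4, 17.5% in Supt16 and 17.4% in Ssrp1. Over 21512 coding genes the median was 11.2% and the 95th percentile 17.6%, so the FACT subunits lie just below that percentile and the other 7 chaperones above it. Ptma itself had 47.7% and its relative Ptms 45.5%. The order thus runs from the ANP32 proteins, nearest to prothymosin, to FACT, where the acidic part is a limited stretch of a long protein.

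**Figure D1:**
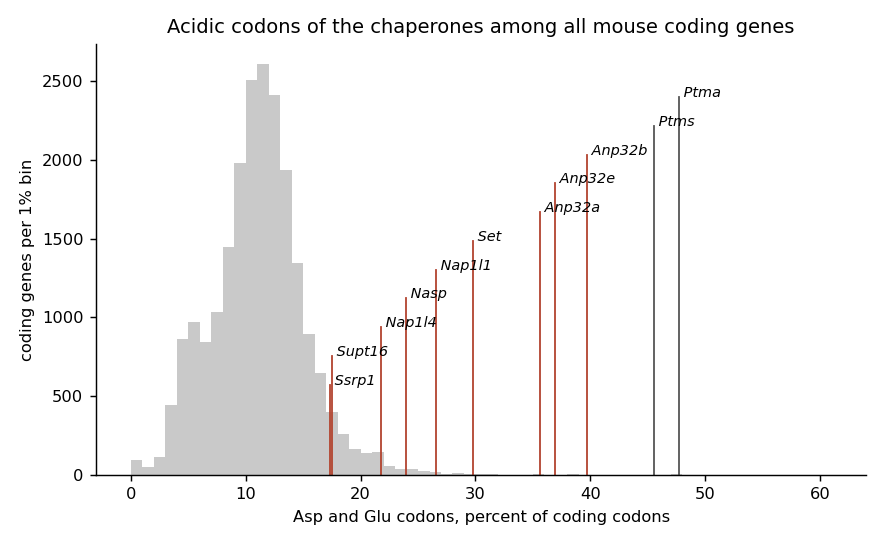
Share of aspartate and glutamate codons (x axis, percent of coding codons) in 21512 mouse coding genes (grey bars, genes per 1% bin), with the 9 chaperones as red lines and Ptma and Ptms as dark lines whose heights only separate the names. The chaperones run from 17.4% for Ssrp1 to 39.7% for Anp32b, against a median of 11.2% over all coding genes.

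The acidic stretches are shown because they are the feature that these genes share with Ptma. For each gene the 30 consecutive codons with the most acidic codons were taken from GENCODE M21 transcripts (GRCm38), and the acidic codons stand in capitals. The stretch of Set (chr2:30070474-30070563, plus strand) lies within exon 7 of 8 and that of Supt16 (chr14:52163212-52163301, minus strand) within exon 24 of 26. The stretches of Anp32b (chr4:46468772-46469956, plus strand) and Anp32e (chr3:95937141-95937916, plus strand) run from exon 4 into exon 5 of 7. Those of Nap1l4 (chr7:143520396-143524175, minus strand, exons 12 to 14 of 15) and Ssrp1 (chr2:85042786-85042999, plus strand, exons 11 to 12 of 17) are also joined across introns. For these and for Ptma (chr1:86529492-86529759, plus strand, exons 3 to 4 of 5) the coordinates therefore include intron sequence that is not printed.
Set: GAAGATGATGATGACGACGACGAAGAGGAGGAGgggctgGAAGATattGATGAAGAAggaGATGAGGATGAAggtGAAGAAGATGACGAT
Anp32b: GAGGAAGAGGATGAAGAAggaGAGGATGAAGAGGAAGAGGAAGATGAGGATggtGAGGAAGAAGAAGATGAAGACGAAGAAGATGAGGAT
Anp32e: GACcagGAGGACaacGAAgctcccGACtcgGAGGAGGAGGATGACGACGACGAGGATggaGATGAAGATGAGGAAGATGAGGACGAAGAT
Nap1l4: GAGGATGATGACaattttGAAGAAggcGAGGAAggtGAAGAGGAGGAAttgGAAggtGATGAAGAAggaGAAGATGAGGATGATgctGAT
Supt16: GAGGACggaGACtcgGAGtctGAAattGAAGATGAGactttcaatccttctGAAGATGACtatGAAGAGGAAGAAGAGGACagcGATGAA
Ssrp1: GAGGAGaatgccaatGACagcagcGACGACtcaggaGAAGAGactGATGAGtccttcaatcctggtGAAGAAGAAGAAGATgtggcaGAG
Ptma: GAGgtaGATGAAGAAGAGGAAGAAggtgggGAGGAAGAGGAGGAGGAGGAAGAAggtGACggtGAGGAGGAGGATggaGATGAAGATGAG
Of 30 codons, 28 were acidic in Anp32b, 25 in Set, 24 in Anp32e, 22 in Nap1l4, 19 in Supt16 and 15 in Ssrp1, beside 24 in Ptma. Among the members not printed, Anp32a had 24, Nap1l1 22 and Nasp 16. Over all coding genes the median of this measure was 8, and only 11 genes had more than Anp32b. More genes exceeded the lowest members, with 227 above Supt16, 499 above Nasp and 661 above Ssrp1. The longest unbroken run of acidic codons was 17 in Anp32b and 12 in Anp32a, against 4 in Nasp. The acidic codons of Nasp are spread over the 773 codons of its longest coding transcript, and which form these cells use was not tested.

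Total counts ran from 65548729 to 66767589 in the PTMA libraries and from 54989408 to 63011584 in the vector libraries. Levels are given as CPM, counts relative to the library total after TMM scaling, where libraries are compared, and as the deposited FPKM, which also divides by gene length, where genes are compared. Ptma, the targeted gene, stood at 1152, 1346 and 1272 CPM in PTMA 1 to 3, against 848, 783 and 1146 CPM in vector 1 to 3. Its log2 fold change of 0.44 (SE 0.13) missed the threshold of 0.05 for the adjusted p (edgeR quasi-likelihood test with Benjamini-Hochberg adjustment over all 16592 genes, adjusted p = 0.951). The 12 T cell and CD8 markers summed to 7238 to 7703 CPM in the PTMA libraries and 7167 to 7602 CPM in the vector libraries. Of 16592 genes tested, 2 passed the threshold, which is 0.0121%. Vector 3 stood apart from the other vector libraries. Its chi-square per gene was 53.3 against vector 1 and 84.8 against vector 2, beside 17.7 between vector 1 and vector 2. The fold changes of the 9 members are given with and without vector 3. All other values here include it. In the 6897 genes averaging 5 FPKM or more, its CPM divided by the mean of vector 1 and vector 2 had a median of 1.04 and a 90th percentile of 1.31.

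By FPKM the 9 transcripts spanned a wide range, from abundant Anp32b to low Anp32a. Anp32b averaged 172 FPKM over the 6 libraries and Set 128 FPKM, which placed them 247th and 358th among the 16592 tested genes. Ssrp1 and Nap1l4 followed, both with a mean of 91.1 FPKM, and their ranges of 84.2 to 98.6 and 84.5 to 98.8 FPKM overlapped. Anp32e averaged 58.4 FPKM, Supt16 32.5 FPKM and Nap1l1 30.3 FPKM, and of these neighbours only Supt16 and Nap1l1 had overlapping ranges over libraries. Nasp at 9.88 FPKM and Anp32a at 6.40 FPKM were the lowest, 4838th and 6156th among tested genes. Ptma at 670 FPKM exceeded every member, and Ptms at 45.3 FPKM fell between Anp32e and Supt16.

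**Figure D2:**
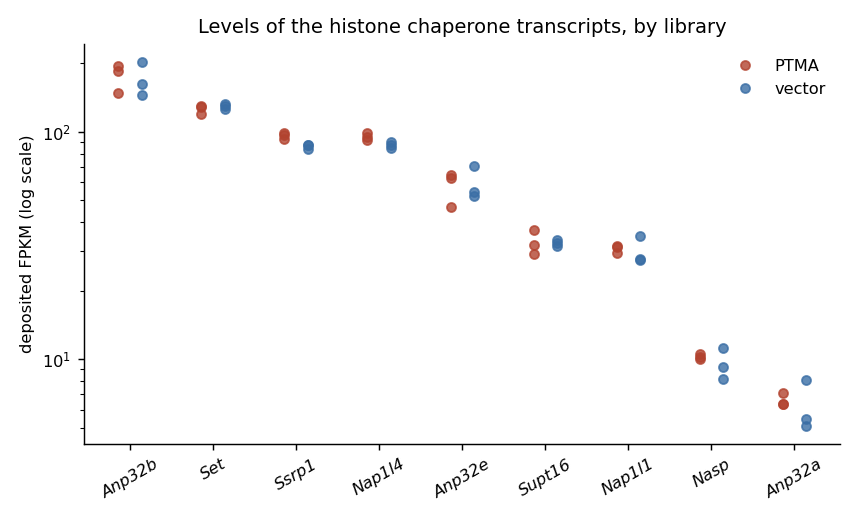
Deposited FPKM (y axis, log scale) of the 9 chaperones in each of 3 PTMA libraries (red, left of each pair) and 3 vector libraries (blue, right), ordered by the mean over the 6 libraries. Anp32b lies highest at a mean of 172 FPKM and Anp32a lowest at 6.40 FPKM, and the distances between most genes exceed the spread between libraries.

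The length behind FPKM bears on this order. Division of count by FPKM gave lengths that were 1.11 times the merged exons of GENCODE M21 for every member, so FPKM was scaled to all annotated exons of a gene together. For Nasp the merged exons cover 7518 bases, whereas its longest coding transcript has 2520. With counts divided by the coding transcript instead, Nasp stood at 32.8 in place of 9.88 and Set at 205 in place of 128, which put Set above Anp32b at 192. A factor of 1.11 in each of these rises does not come from the choice of transcript. Anp32b, with 1716 bases by both measures, also rose, from 172 to 192. Nasp and Anp32a kept ranks 8 and 9, while Nap1l1 (42.8) and Supt16 (39.0) changed places. Which form of each gene these cells use was not tested. Division by a form of Nasp shorter than the longest would raise its value, so its rank depends on this choice.

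None of the 9 members passed the threshold between PTMA and vector (edgeR, 0 of 9; DESeq2, 0 of 9; limma on log2 FPKM, 0 of 9). At an unadjusted p under 0.05 there was 1 of 9, Ssrp1, where 4.65% of all tested genes reached this, 1.92% higher and 2.72% lower in PTMA libraries. By sign, 7 of 9 log2 fold changes lay above 0, where 46.8% of all tested genes did. The median over the members was 0.04 and that over all tested genes -0.01. The groups did not overlap for 1 of 9 members, again Ssrp1, where 10.8% of all tested genes showed no overlap, 5.39% higher and 5.38% lower in PTMA libraries. In 9 genes a count of 1 lies near these background shares. In bulk RNA a change in the number of cells of a type and a change in RNA per cell cannot be told apart.

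**Figure D3:**
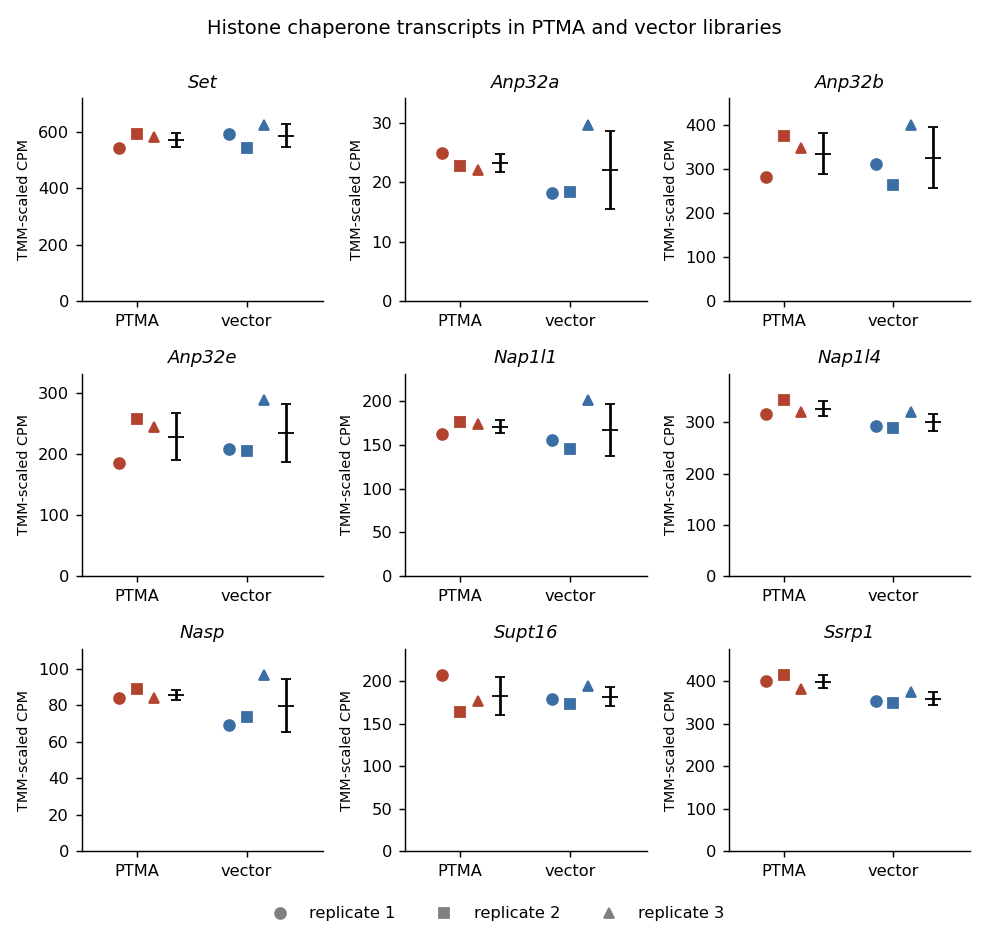
TMM-scaled CPM (y axis, from 0) of each chaperone in PTMA libraries (red, left) and vector libraries (blue, right), with marker shape for the replicate number and black bars for mean ± SD (n = 3). The groups overlap for all genes but Ssrp1, and vector 3 is the highest of all libraries for 6 of the 9.

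Set encodes a chaperone that also inhibits the phosphatase PP2A. It had 542, 590 and 580 CPM in PTMA 1 to 3, against 592, 542 and 623 CPM in vector 1 to 3. The lowest values, in PTMA 1 and vector 2, were nearly equal, and the groups overlapped throughout. The log2 fold change was -0.04 (SE 0.07, 95% interval -0.20 to 0.12, edgeR adjusted p = 0.967). That interval corresponds to 0.871-fold to 1.09-fold. Of the 9 members Set varied least between libraries, with a highest value 1.151 times the lowest.

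Genes that act with SET were read from lists of related genes. Of 18 PP2A subunits and regulators, 0 passed in either direction with edgeR and 0 had an unadjusted p under 0.05, and the median log2 fold change was 0.05. The smallest p-values belonged to Ppp2r2d, a regulatory subunit, with 52.5 ± 3.03 CPM in PTMA and 46.5 ± 1.18 CPM in vector libraries (SD, n = 3 each). Ppme1, the enzyme that removes the methyl group from the catalytic subunit, followed with 129 ± 2.75 CPM in PTMA and 117 ± 5.09 CPM in vector libraries (SD, n = 3 each). Both had an edgeR adjusted p of 0.951. SET is also part of a complex that the killer cell protease granzyme A cuts, together with APEX1, HMGB2, NME1 and TREX1. Of these 4 genes and Gzma, 0 of 5 passed. Apex1, a DNA repair enzyme, had 75.8, 73.2 and 58.0 CPM in PTMA libraries, against 52.6, 52.7 and 66.5 CPM in vector libraries (log2 fold change 0.27, SE 0.13, edgeR adjusted p = 0.951). Nme1, a nucleoside diphosphate kinase, had a log2 fold change of 0.14 (SE 0.10, adjusted p = 0.951), and for both genes vector 3 lay inside the PTMA range. Trex1 varied between libraries without regard to group, with 24.1, 20.6 and 3.50 CPM in PTMA 1 to 3 and 6.30, 20.8 and 17.7 CPM in vector 1 to 3. Gzma was low, at 1.17 to 2.005 CPM in PTMA and 1.41 to 2.24 CPM in vector libraries.

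The ANP32 proteins share a leucine-rich repeat domain followed by an acidic tail. Anp32b, whose protein is a chaperone for H3 and H4, had 282, 373 and 347 CPM in PTMA 1 to 3, against 311, 264 and 400 CPM in vector 1 to 3. The lowest library was vector 2 and the highest vector 3, so the whole range lay within the vector group. PTMA over vector, the log2 fold change was 0.04 (SE 0.15, 95% interval -0.30 to 0.39, edgeR adjusted p = 0.981). Anp32e had 186, 257 and 245 CPM in PTMA 1 to 3, against 210, 206 and 289 CPM in vector 1 to 3. PTMA 1 was here the lowest library and vector 3 the highest. The log2 fold change was -0.04 (SE 0.16, 95% interval -0.39 to 0.32, edgeR adjusted p = 0.984). Anp32a, whose protein forms the acetylation inhibitor with SET and also promotes caspase activation, had 25.0, 22.7 and 22.05 CPM in PTMA 1 to 3, against 18.2, 18.4 and 29.6 CPM in vector 1 to 3. All 3 PTMA libraries lay above vector 1 and vector 2 and below vector 3. PTMA over vector, the log2 fold change was 0.07 (SE 0.18, 95% interval -0.35 to 0.49, edgeR adjusted p = 0.977), the widest interval of the 9.

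Within the family Anp32b took a similar share in every library, while the small share of Anp32a varied more for its size. Anp32b took 73.3%, 73.3% and 72.8% of the summed ANP32 FPKM in PTMA 1 to 3, against 73.8%, 70.7% and 72.0% in vector 1 to 3. Anp32e took 23.2% to 24.7% in PTMA and 23.9% to 26.6% in vector libraries. Anp32a took 2.41% to 3.51% in PTMA and 2.33% to 2.89% in vector libraries. Anp32b and Anp32e moved together over libraries, with a Pearson r of 0.93 over 6 libraries of log2 CPM, the highest of the 36 pairs of members. This r is a description, since all genes share the same libraries and scaling. Anp32b and the processed pseudogene Anp32b-ps1 could share reads, but the pseudogene had 127 to 151 counts in PTMA and 86 to 117 in vector libraries, against 17036 counts or more for Anp32b.

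**Figure D4:**
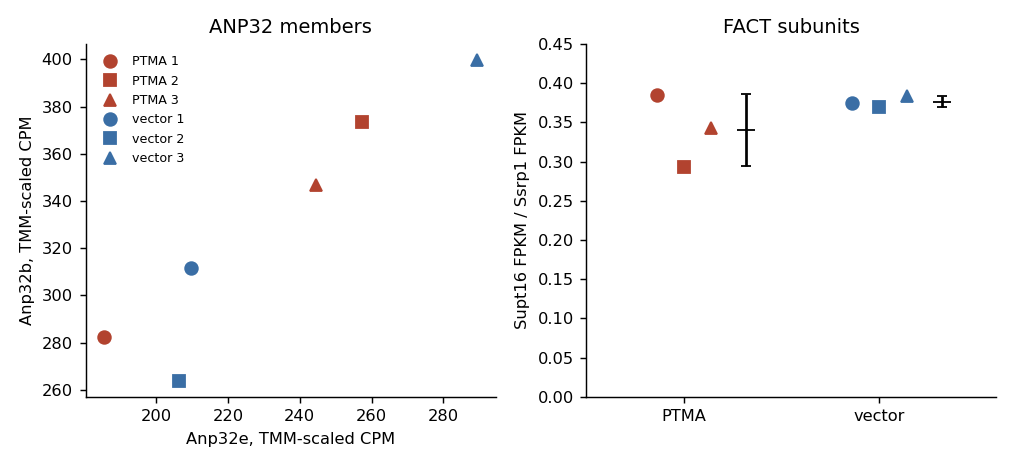
Left, TMM-scaled CPM of Anp32e (x axis) and Anp32b (y axis) in each library (red PTMA, blue vector, marker shape for the replicate number; axes do not start at 0), where vector 3 is highest for both at 289 and 400 CPM. Right, the ratio of Supt16 to Ssrp1 FPKM per library with mean ± SD (n = 3), 0.340 in PTMA and 0.376 in vector libraries, with PTMA 2 lowest at 0.294.

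The promoters of this pair are shown because the transcripts moved together. They are the 250 bases before the RefSeq start (GRCm38.p6), at chr4:46450676-46450925 for Anp32b and chr3:95929007-95929256 for Anp32e, both on the plus strand. Capitals mark matches on either strand to CCAAT, to the GC box GGGCGG, to the E-box CACGTG and to the ETS motif CCGGAAG. Overlapping GC boxes run together in capitals.
Anp32b: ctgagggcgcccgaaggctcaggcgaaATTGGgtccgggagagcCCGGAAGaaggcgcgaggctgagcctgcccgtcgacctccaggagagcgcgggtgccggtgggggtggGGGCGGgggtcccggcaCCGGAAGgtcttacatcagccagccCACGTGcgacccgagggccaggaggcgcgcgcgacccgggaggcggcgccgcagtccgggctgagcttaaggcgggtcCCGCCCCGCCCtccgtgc
Anp32e: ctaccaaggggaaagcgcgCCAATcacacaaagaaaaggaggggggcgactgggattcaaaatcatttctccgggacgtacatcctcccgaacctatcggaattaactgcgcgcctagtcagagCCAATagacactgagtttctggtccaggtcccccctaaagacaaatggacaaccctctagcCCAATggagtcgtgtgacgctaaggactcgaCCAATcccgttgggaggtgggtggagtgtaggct
Anp32e held 4 CCAAT matches and none of the other motifs marked. Anp32b held 1 CCAAT, 3 GC box, 1 E-box and 2 ETS matches. RefSeq windows were found for 8 of the 9 members. CCAAT was present for 6 of these 8 genes (Set, Anp32a, Anp32b, Anp32e, Nap1l1 and Nasp), in 7 of their 10 windows, where 33.9% of 32851 windows of this length hold it. The windows of the FACT genes Ssrp1 and Supt16 held no CCAAT. The GC box was in 6 of the 10 windows, where 32.7% of all windows hold it. The E-box was in 3 of the 10, against 6.02% of all windows, and the ETS motif in 2, against 6.91%. GC content of the member windows ran from 46.4% to 79.6%, beside a median of 52.4% over all windows. The E2F motif TTTCCCGC was found for Ssrp1, where 0.895% of windows hold it, and TTTGGCGC, TGACGT and GCATGCGC were found in no member window. A match is a run of letters and not a measured binding site.

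Lists were also read for the processes in which ANP32 proteins act. ANP32A and prothymosin alpha are both known to act on the apoptosome, ANP32A promoting and prothymosin restraining caspase activation. Of 12 genes of the apoptosome and its regulators 0 passed with edgeR and 3 had an unadjusted p under 0.05, where 4.65% of all tested genes did. Of these 3, Htra2 was higher and Apaf1 and Hspa1b were lower in PTMA libraries. Apaf1, the scaffold, was 1 of them (log2 fold change -0.24, SE 0.10, adjusted p = 0.951). Htra2, a mitochondrial protease that opposes caspase inhibitors, had 66.2 ± 3.05 CPM in PTMA and 56.3 ± 3.72 CPM in vector libraries (SD, n = 3 each; log2 fold change 0.23, SE 0.08, edgeR adjusted p = 0.951). Hspa1b, an inducible heat shock protein, was low at 0.137 to 0.275 CPM in PTMA and 0.321 to 0.645 CPM in vector libraries, and it shares most of its sequence with Hspa1a, so its reads are uncertain. For ANP32E the partner is H2A.Z. Of 13 genes of H2A.Z and its exchange 0 passed and 0 had an unadjusted p under 0.05. H2afz, listed in the table as H2az1, had 805, 886 and 812 CPM in PTMA 1 to 3, against 679, 657 and 911 CPM in vector 1 to 3 (log2 fold change 0.16, SE 0.12, edgeR adjusted p = 0.951). Vector 3 was again the highest library. The helicases Ruvbl2 (log2 fold change 0.14, SE 0.06) and Ruvbl1 (0.20, SE 0.09) had the smallest p-values of that list, with an edgeR adjusted p of 0.951 for both.

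The NAP1 genes code for carriers of H2A and H2B. Nap1l4 had 316, 344 and 321 CPM in PTMA 1 to 3, against 294, 288 and 320 CPM in vector 1 to 3. Only PTMA 1 and vector 3 kept the groups from separating. The log2 fold change was 0.12 (SE 0.07, 95% interval -0.03 to 0.28, edgeR adjusted p = 0.951). Nap1l1 had 162, 175 and 173 CPM in PTMA 1 to 3, against 155, 145 and 201 CPM in vector 1 to 3. The PTMA libraries were closely spaced and lay between vector 1 and vector 3. PTMA over vector, the log2 fold change was 0.03 (SE 0.12, 95% interval -0.23 to 0.29, edgeR adjusted p = 0.984). By FPKM, Nap1l4 took 75.9%, 76.0% and 74.9% of the sum of both genes in PTMA 1 to 3, against 75.4%, 76.2% and 72.0% in vector 1 to 3. The other NAP1 genes of the mouse were nearly silent. Nap1l3 stood at 0.0612 to 0.365 CPM in PTMA and 0.258 to 0.572 CPM in vector libraries. Nap1l2 and Nap1l5 had 0 counts in all PTMA libraries, which allows up to 3 counts in each, and at most 5 and 14 counts in a vector library.

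Nasp, which protects a pool of H3 and H4 and is known from dividing cells, had 83.8, 89.2 and 84.1 CPM in PTMA 1 to 3, against 69.5, 73.6 and 96.6 CPM in vector 1 to 3. Its 3 PTMA values lay above vector 1 and vector 2 and below vector 3, as for Anp32a. The log2 fold change was 0.10 (SE 0.12, 95% interval -0.17 to 0.37, edgeR adjusted p = 0.953). Nasp and Anp32a had an r of 0.93 over the 6 libraries. The long testis form of NASP and the short somatic form come from 1 gene and are not separated in a table per gene.

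The FACT subunits differed from each other in how they varied. Ssrp1 had 400, 414 and 383 CPM in PTMA 1 to 3, against 354, 348 and 376 CPM in vector 1 to 3. Every PTMA library lay above every vector library, PTMA 3 and vector 3 being the closest. PTMA over vector, the log2 fold change was 0.15 (SE 0.06, 95% interval 0.01 to 0.30), which is 1.11-fold with an interval of 1.01 to 1.23. The unadjusted p was 0.0406 and the difference did not pass over all genes (edgeR adjusted p = 0.951). With scaling by library totals the unadjusted p was 0.0531, and with a replicate block 0.0968. Supt16 had 207, 164 and 177 CPM in PTMA 1 to 3, against 179, 173 and 194 CPM in vector 1 to 3. PTMA 1 was the highest and PTMA 2 the lowest of all 6 libraries. The log2 fold change was 0.00 (SE 0.09, 95% interval -0.21 to 0.22, edgeR adjusted p = 0.996), and its sign was negative with scaling by library totals and positive with DESeq2 size factors.

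The ratio of Supt16 to Ssrp1 FPKM was 0.384, 0.294 and 0.343 in PTMA 1 to 3, against 0.375, 0.370 and 0.384 in vector 1 to 3. The mean was 0.340 ± 0.045 in PTMA and 0.376 ± 0.007 in vector libraries (SD, n = 3 each). The ratio of PTMA 1 matched that of the vector libraries and the groups overlapped. Although both subunits form 1 complex, their r over the 6 libraries was 0.08, whereas Ssrp1 had an r of 0.93 with Nap1l4. Supt16 had the 4 lowest of the 36 values of r, down to -0.28 with Anp32e. Supt16 overlaps Rpgrip1 on the opposite strand, and Ssrp1 overlaps P2rx3. No source used here says whether strand was used in counting. Rpgrip1 had 915 to 1046 counts in PTMA and 1037 to 1956 in vector libraries, against 10013 counts or more for Supt16, and P2rx3 had at most 13 counts.

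Of 13 elongation factors that work beside FACT, 0 passed with edgeR and 0 had an unadjusted p under 0.05, with a median log2 fold change of -0.02. Wdr61 (log2 fold change 0.14, SE 0.12) and Ctr9 (-0.09, SE 0.07), both subunits of the PAF1 complex, had the smallest p-values, with an edgeR adjusted p of 0.952 for both. Of 29 other histone chaperones 0 passed and 2 had an unadjusted p under 0.05, where 4.65% of all tested genes did. In that list 18 had a log2 fold change above 0, where 46.8% of all tested genes did. Chaf1b, a subunit of the replication-coupled assembly factor CAF-1, had 95.02, 87.3 and 85.0 CPM in PTMA libraries, against 79.2, 78.2 and 76.9 CPM in vector libraries (log2 fold change 0.19, SE 0.07, edgeR adjusted p = 0.951). Ubn2, of the HIRA pathway that places histones outside replication, had 36.2, 28.4 and 33.9 CPM in PTMA libraries, against 43.6, 41.6 and 35.5 CPM in vector libraries (log2 fold change -0.29, SE 0.12, edgeR adjusted p = 0.951). The values of Chaf1b did not overlap between groups, as for 10.8% of all tested genes, and those of Ubn2 overlapped through PTMA 1.

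Of 10 relatives of the members 7 were tested and 0 passed. Their log2 fold changes all lay below 0, where 46.8% of all tested genes lay above 0, but those of Tspyl3 (-0.01, SE 0.07) and Tspyl1 (-0.02, SE 0.07) were close to it. Tspyl3 at 24.9 FPKM and Tspyl1 at 21.2 FPKM stood above Nasp and Anp32a in level, and the other 8 averaged at most 4.06 FPKM. Npm2, a chaperone of the egg, had 0.154, 0.0612 and 1.25 CPM in PTMA 1 to 3, against 1.54, 3.35 and 1.03 CPM in vector 1 to 3 (log2 fold change -2.01, SE 0.91, edgeR adjusted p = 0.951). PTMA 3 and vector 3 overlapped. Npm2 is also 1 of 10 oocyte markers, which summed to 2.53 to 6.51 CPM in PTMA and 28.5 to 36.1 CPM in vector libraries. Of these 1, Gdf9, passed the threshold with edgeR. It was the largest part of the vector sums, at 24.7, 12.5 and 19.3 CPM in vector 1 to 3. Gdf9, Bmp15, Zp1, Zp2, Zp3 and Padi6 did not overlap between groups, while Oosp1, Nlrp5, Zar1 and Npm2 did. The part of the oocyte markers in the values of Npm2 was not tested.

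Vector 3 had the highest value of all 6 libraries for 6 of the 9 members: Set, Anp32a, Anp32b, Anp32e, Nap1l1 and Nasp. Relative to the mean of vector 1 and vector 2 it was 1.62 times as high for Anp32a, 1.39 for Anp32b, 1.39 for Anp32e, 1.35 for Nasp and 1.34 for Nap1l1. These 5 members exceeded the 90th percentile of 1.31 among those 6897 genes. The same ratio was 1.10 for Set, Nap1l4 and Supt16, 1.07 for Ssrp1 and 1.40 for Ptma. PTMA 1 stood at 0.739 of the mean of PTMA 2 and PTMA 3 for Anp32e, 0.784 for Anp32b and 1.22 for Supt16.

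Without vector 3, 5 of 9 members had an unadjusted p under 0.05, where 15.4% of the 17287 genes tested did. They were Anp32a, Nap1l1, Nap1l4, Nasp and Ssrp1, and all 5 were higher in PTMA libraries. Vector 3 was the highest vector library for each of these 5. Leaving it out therefore raises their fold changes by construction, so the count and its direction are a description. No member passed over all genes (edgeR, 0 of 9, smallest adjusted p = 0.198 for Nasp). The log2 fold change of Anp32a was 0.35 (SE 0.10) in place of 0.07, that of Nasp 0.26 (SE 0.07) in place of 0.10 and that of Nap1l1 0.18 (SE 0.06) in place of 0.03. For Anp32e it was 0.14 (SE 0.12) in place of -0.04, for Anp32b 0.22 (SE 0.12) in place of 0.04 and for Supt16 0.05 (SE 0.09) in place of 0.00. Ssrp1 at 0.19 (SE 0.06) and Nap1l4 at 0.17 (SE 0.06) moved less, and Set at 0.01 (SE 0.06) remained near 0. The median over the members was 0.18 without vector 3 and 0.04 with it. The same count was 0 of 9 without vector 1, vector 2, PTMA 1 or PTMA 2, and 1 of 9 without PTMA 3.

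**Figure D5:**
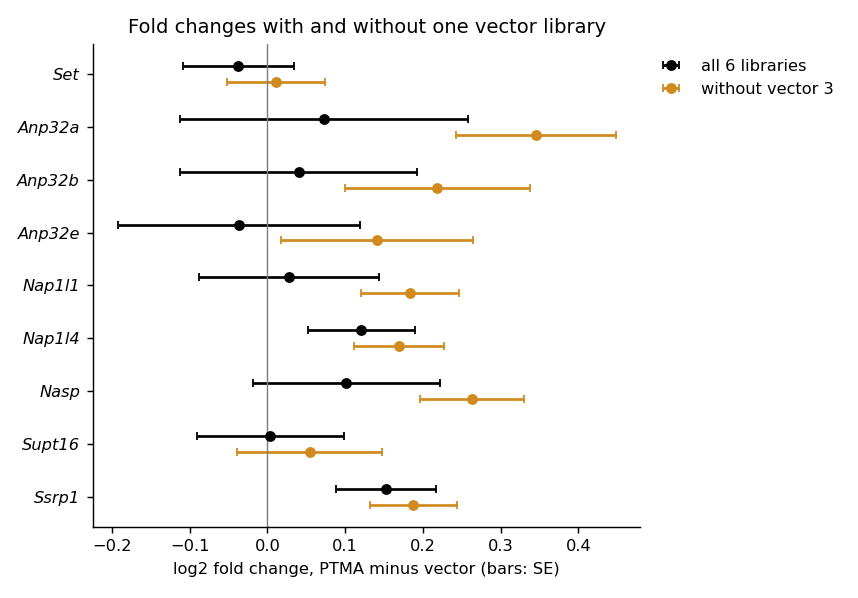
Log2 fold change of each chaperone, PTMA minus vector (x axis; points are edgeR estimates, bars are ± SE), with all 6 libraries (black) and without vector 3 (orange). Without vector 3, Anp32a stands at 0.35 in place of 0.07, Nasp at 0.26 in place of 0.10 and Ssrp1 at 0.19 in place of 0.15. Vector 3 was the highest vector library for these genes, so leaving it out raises their values by construction.

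Values of other gene groups are given beside these results, some of which overlapped between groups and some of which did not. A list of 34 S phase genes summed to 7799, 7918 and 7698 CPM in PTMA 1 to 3, against 6965, 6988 and 7238 CPM in vector 1 to 3. In it 31 of 34 log2 fold changes lay above 0, where 46.8% of all tested genes did. At an unadjusted p under 0.05 there were 8 of 34, where 4.65% of all tested genes reached this, and 0 passed with edgeR. Mcm3, a helicase subunit, had 562 ± 10.7 CPM in PTMA and 496 ± 11.1 CPM in vector libraries (SD, n = 3 each), and Rrm1, of nucleotide synthesis, 610 ± 25.1 CPM in PTMA and 535 ± 31.9 CPM in vector libraries. Both had an edgeR adjusted p of 0.951. Of the marker lists, the 7 of 10 dendritic cell genes with a row summed to 20.2 to 25.4 CPM in PTMA and 14.3 to 16.3 CPM in vector libraries, with Ccl17 at 0 to 0.12 CPM. Among them Ccl22 (5.86 to 8.42 CPM in PTMA, 0.709 to 2.09 CPM in vector libraries) and Fscn1 (1.51 to 1.82 CPM in PTMA, 0.0806 to 0.339 CPM in vector libraries) did not overlap. Itgax (2.40 to 2.98 CPM in PTMA, 2.54 to 3.85 CPM in vector libraries) and Zbtb46 (0.918 to 2.46 CPM in PTMA, 2.21 to 2.73 CPM in vector libraries) overlapped. So did Flt3 and Xcr1, the largest part of the vector sums (6.79 to 10.4 CPM in PTMA, 7.14 to 8.27 CPM in vector libraries). The 4 NK cell genes summed to 40.9 to 45.7 CPM in PTMA and 48.3 to 50.1 CPM in vector libraries, with Ncr1 and Klra8 at or near 0. Most of that sum was Eomes, which CD8+ T cells also express, at 31.0 to 36.03 CPM in PTMA and 38.8 to 39.2 CPM in vector libraries, while Klrb1c overlapped. The 6 keratinocyte genes followed libraries, at 10.7, 2.59 and 1.43 CPM in PTMA 1 to 3 and 1.86, 19.9 and 29.2 CPM in vector 1 to 3. The 6 B cell genes summed to 952 to 1025 CPM in PTMA and 921 to 995 CPM in vector libraries, nearly all of it Ighm. The 5 myeloid genes summed to 12.5 to 14.3 CPM in PTMA and 9.64 to 12.6 CPM in vector libraries, and the 4 CD4 and regulatory T cell genes to 9.63 to 11.0 CPM in PTMA and 8.59 to 11.0 CPM in vector libraries. Erythroid genes summed to at most 0.183 CPM in PTMA and 0.548 CPM in vector libraries, and adipocyte genes to at most 0.077 CPM in PTMA and 0.214 CPM in vector libraries. The part of any of these in the difference of Ssrp1, or in the height of vector 3, was not tested.

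Across the 36 pairs of members the median r was 0.60, 10 pairs exceeded 0.80 and 4 lay below 0. For each member the 3 genes with the most similar pattern over the 6 libraries were found among 6897 genes. The closest was Zcchc10 for Set (r = 0.989), Psma6 for Anp32a (0.997), Scfd1 for Anp32b (0.998) and mt-Ty for Anp32e (0.997). It was Rpl7 for Nap1l1 (0.996), Tubd1 for Nap1l4 (0.995), Eif2a for Nasp (0.9995), Stx18 for Supt16 (0.967) and Mlf2 for Ssrp1 (0.995). With 6 libraries and 6897 candidates such values are a description. Supt16 had the lowest closest match, and H1f5, a linker histone gene, was its second at 0.952.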

How the data were processed

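Poly(A) RNA was sequenced in pairs on an Illumina instrument, per the labels' protocols, which speak of an adipose type that does not match CD8+ T cells. The authors deposited raw counts per gene, and in the same table FPKM per gene and library, per the file headers. Bowtie 0.12.2, HISAT2 2.0 and StringTie 1.3.0 appear in the submitters' processing notes without roles, as does the build mm8. Coordinates in the table match GRCm38, since 99.7% of 27405 identifiers shared a start or an end with the GENCODE M21 gene. Sources used here do not name the counting program or say how it treated strand and multiply matching reads.

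Counts were tested with edgeR 4.0.16 (R 4.3.3): TMM scaling, filterByExpr with a minimum count of 10, the quasi-likelihood test on group alone, and Benjamini-Hochberg adjustment with a threshold of 0.05. Log2 fold changes are PTMA minus vector, and intervals are 95% intervals of the fit. The total count of a library was 54989408 to 66767589, and where 0 was counted the limit was taken as 3 counts (0.0456 to 0.0536 CPM, counting error only). Alternatives were other scalings, no filter, DESeq2 1.42.0, limma 3.58.1 on log2(FPKM + 1) and log2(FPKM + 0.1), a replicate block, leaving out each library, and another gene length, which was chosen after seeing the data. Members, lists and alternatives were chosen with earlier results of these data known. Named genes are the members, Ptma, Ptms, the 2 genes of each list with the smallest p-values, and the 3 closest patterns per member; other genes named were chosen after their values were seen. In simulated counts for the comparison of PTMA with vector over 16592 genes, edgeR recovered 50.7% of 67 genes changed 1.5-fold and 74.6% of 67 changed 2-fold. These counts held 200 changed genes and were drawn for each gene separately, so no library stood apart as vector 3 did. The recovered shares therefore need not hold for the data, where 2 genes passed. In the same simulated counts, unchanged genes that passed the threshold numbered 14 with edgeR and 41 with DESeq2. Within each group no library was a copy of another, as the chi-square per gene ran from 17.7 to 84.8 over these pairs.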

Additional observations from a re-analysis of the deposited data

How the results depend on the processing

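No member passed the threshold in any of the 13 alternatives. The number of genes past the threshold over the whole table was 2, against 0 with no filter on low counts, 42 with DESeq2, 1 with limma on log2(FPKM + 1), 1 with limma on log2(FPKM + 0.1) and 0 with a replicate block. It was 0 to 4 when single libraries were left out: 0 without PTMA 3 or vector 1, 1 without vector 3, 3 without PTMA 1 or vector 2 and 4 without PTMA 2. The number of genes tested also differed from 16592, at 27480 with no filter, 10960 with limma and 17196 to 17295 without single libraries. The cause was not tested. The median log2 fold change of the members was 0.04, and -0.03 to 0.18 when single libraries were left out, lying below 0 without vector 1 (-0.01) or vector 2 (-0.03).

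Ssrp1, Nap1l4 and Nasp were positive in all 13 alternatives. Supt16 lay below 0 with library totals (-0.022), with limma on log2(FPKM + 1) (-8.06e-06) and on log2(FPKM + 0.1) (-0.00019), and with a replicate block (-0.0014). Leaving out single libraries gave -0.096 to 0.076 for Supt16, -0.081 to 0.011 for Set, -0.048 to 0.35 for Anp32a, -0.080 to 0.22 for Anp32b, -0.13 to 0.14 for Anp32e and -0.055 to 0.18 for Nap1l1. The upper end came without vector 3 for all of these but Supt16, where it came without PTMA 2.

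Libraries of 1 number deviated in opposite directions on balance (r of -0.185, -0.239 and -0.225 over 10915 genes), so the replicate numbers are not taken to pair the samples. With the replicate block 0 members had an unadjusted p under 0.05.

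Per kilobase of the longest coding transcript, mean levels were 205 for Set, 10.7 for Anp32a, 70.8 for Anp32e, 42.8 for Nap1l1, 137 for Nap1l4, 32.8 for Nasp, 39.0 for Supt16 and 138 for Ssrp1. Apart from the transcript, this scale runs 1.11 times higher than the deposited FPKM. The share of Anp32b in ANP32 was then 70.2% and the ratio of Supt16 to Ssrp1 0.283. With 3 libraries a group, differences of the size seen here, about 1.1-fold, lie below those that the simulation covered.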
